A study of Mus musculus with 4 samples.

Results

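Many mouse genes lie head to head: 2 protein-coding genes start within 1 kb of each other on opposite strands and are transcribed away from the short stretch of DNA between them. In this account, 1030 regions of open chromatin at such divergent pairs are described, all of them taken from the 25745 peaks with more ATAC-seq signal in E9.5 hearts that lacked SMYD1 than in wild-type (WT) hearts. A region was a member when its CpG observed/expected ratio was at least 0.4 in the 500 bp around its centre, and when it lay within 1 kb of the transcription start sites (TSSs) of 2 genes in this arrangement. The members were 4.00% of the list (95% exact interval 3.77 to 4.25%). Their closest pairs were 924 gene pairs with 1842 genes, and 41 members had more than 1 qualifying pair. The rule used no score, although the list itself was defined by a measured difference between the genotypes.

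ATAC-seq marks open chromatin by the sites at which the Tn5 transposase can insert adapters. The *Smyd1-KO* hearts were homozygous for a conventional null allele of *Smyd1*, which encodes a histone methyltransferase of striated muscle, and the control hearts were WT. There were 4 libraries, 2 for each genotype, each prepared from 40000 viable cells of 4 pooled whole hearts at embryonic day 9.5. Peaks were called on both libraries of a genotype taken as one, so no value here has a replicate error, and the depth of a single library is unknown from the lists. In whole hearts, more cells of a type and more open chromatin per cell cannot be told apart.

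Promoters of this kind are nearly always CpG islands, in which the DNA is rich in CpG dinucleotides and mostly free of methylation. A single nucleosome-depleted stretch can serve both genes, and transcription starts at both of its edges. Housekeeping genes, among them those of DNA repair, the mitochondrion and the ribosome, are frequent in such pairs, and ETS factors such as GABPA, NRF1, NFY, YY1 and SP1 are the factors usually named at them.

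The value of each peak is its score, the pooled tags the authors counted in the peak in *Smyd1-KO* hearts. A score is a level and not a difference. All that is known of the difference is that each listed peak passed the authors' cutoff of 2-fold between genotypes. A peak in the list is called gained here.

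The bases between the TSSs of 6 pairs show what these promoters look like. They were chosen from the pairs with the strongest members and from textbook divergent pairs, and none of the printed bases lies in an annotated exon. All are the plus strand of mm10, 5′ to 3′, so that the gene on the minus strand starts just left of the first base and the gene on the plus strand just right of the last. Capitals mark the strings searched for, on either strand, namely CCGGAAG (ETS), CGCATGCG (NRF1), GGGCGGG (SP1), CCAATC (NFY), AAGATGGCG (YY1), TGACGTCA (CRE), CACGTG (E-box), CTCGCGAG (ZBTB33-type) and TACGTG (HIF), which shares ACGTG with the E-box. A match describes the letters and is not a binding site. The pairs lie at chr14:67715842-67715936 (*Cdca2* and *Kctd9*), chr12:111813874-111814169 (*Xrcc3* and *Zfyve21*), chr1:74284739-74284929 (*Aamp* and *Pnkd*), chr10:80701978-80702183 (*Mob3a* and *Izumo4*), chr7:28741821-28741991 (*Mrps12* and *Sars2*) and chrX:73786898-73787027 (*Idh3g* and *Ssr4*).
Cdca2/Kctd9: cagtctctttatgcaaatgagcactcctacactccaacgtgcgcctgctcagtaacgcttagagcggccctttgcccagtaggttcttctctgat
Xrcc3/Zfyve21: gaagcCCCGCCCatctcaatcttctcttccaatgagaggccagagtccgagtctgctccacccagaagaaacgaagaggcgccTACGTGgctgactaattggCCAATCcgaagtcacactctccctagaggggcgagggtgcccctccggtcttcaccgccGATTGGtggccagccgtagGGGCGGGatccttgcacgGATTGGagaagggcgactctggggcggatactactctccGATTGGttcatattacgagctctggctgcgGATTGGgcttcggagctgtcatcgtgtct
Aamp/Pnkd: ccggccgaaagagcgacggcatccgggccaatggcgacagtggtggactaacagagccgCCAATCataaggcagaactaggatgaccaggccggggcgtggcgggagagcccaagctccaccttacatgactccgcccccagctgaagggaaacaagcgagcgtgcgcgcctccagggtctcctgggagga
Mob3a/Izumo4: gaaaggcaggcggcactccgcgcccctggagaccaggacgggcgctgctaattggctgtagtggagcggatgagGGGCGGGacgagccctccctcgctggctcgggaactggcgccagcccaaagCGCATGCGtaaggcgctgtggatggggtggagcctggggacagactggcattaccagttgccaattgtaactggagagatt
Mrps12/Sars2: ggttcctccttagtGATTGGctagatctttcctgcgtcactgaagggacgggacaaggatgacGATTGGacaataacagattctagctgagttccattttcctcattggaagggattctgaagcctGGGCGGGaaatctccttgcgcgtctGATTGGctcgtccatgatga
Idh3g/Ssr4: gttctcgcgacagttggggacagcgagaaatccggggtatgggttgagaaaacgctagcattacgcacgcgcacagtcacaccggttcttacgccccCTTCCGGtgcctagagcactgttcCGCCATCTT

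The stretch between *Xrcc3*, a gene of homologous recombination, and *Zfyve21* holds the NFY string 5 times. In *Idh3g* and *Ssr4* the ETS and YY1 strings stand close to the TSS of *Ssr4*. The stretch between *Cdca2* and *Kctd9*, which carried the strongest member, holds none of these strings.

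The first comparison was how many of the pairs had gained a peak. GENCODE M21 has 1232 divergent pairs of protein-coding genes with TSSs at most 1 kb apart, of which 1133 were CpG-rich around the midpoint. A member lay at 936 of these, or 82.6% (exact interval 80.3 to 84.8%). Counted by gene, 85.0% of the 2218 genes in CpG-rich pairs had a gained peak within 1 kb of a TSS (83.5 to 86.5%). The same share was 66.2% among 11182 CpG-rich genes in no divergent pair and 48.1% among all 21938 protein-coding genes. It was 14.1% among CpG-poor genes in no pair. A peak at a pair counts for both of its genes, whereas a single gene can be counted only through its own TSSs. Intervals cover counting error only, since regions are not replicates, and no test compares these shares.

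The other 197 CpG-rich pairs had no member. Of these, 148 had no gained peak within 1 kb of any TSS of either gene, and 41 had one near a TSS of 1 gene only. The other 8 had gained peaks within 1 kb of TSSs of both genes, but no member. The median CpG ratio was 0.838 in the pairs without a member and in those with one, and the lower quartile was 0.684 and 0.736. Their TSSs lay closer together, at a median of 72 bp (quartiles 41 and 143) against 108 bp (60 and 204). A pair without a member may be open to a like degree in both genotypes or closed in both, since the lists hold only peaks that differed.

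In the WT-enriched list, 0 of 106 peaks lay at a divergent pair, whatever the CpG content, which allows a share of up to 2.83% (the limit of 3 counts). No WT-enriched peak lay within 1 kb of a TSS of any gene of a CpG-rich pair. One WT-enriched peak in all lay within 1 kb of a protein-coding TSS.

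The share of pairs with a member differed with the distance between the TSSs. Where the TSSs were at most 50 bp apart, 74.1% of 255 pairs had a member (exact interval 68.3 to 79.4%). At 51 to 100 bp the share was 81.7% of 312 pairs, at 101 to 150 bp 83.6% of 183, and at 151 to 200 bp 89.1% of 110. It stayed near this level at wider distances, with 89.4% of 123 pairs at 201 to 300 bp, 88.0% of 83 pairs at 301 to 500 bp and 86.6% of 67 pairs at 501 to 1000 bp. The interval at 0 to 50 bp ended below those at 151 to 200 bp (81.7 to 94.2%) and 201 to 300 bp (82.6 to 94.3%) began. By CpG content the lowest share was that of pairs with a ratio from 0.4 to 0.6, at 68.5% of 108 pairs (58.9 to 77.1%), whereas it was 85.8% at 0.6 to 0.8, 83.9% at 0.8 to 1.0 and 80.3% above 1.0. A peak also had to reach the CpG minimum in its own window to be a member, which can lower the share next to that minimum. With peaks counted whatever their own CpG ratio, a setting added after seeing the data, the share at 0.4 to 0.6 was 70.4% (60.8 to 78.8%).

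The score of the strongest member of a pair followed the distance as well. Its median was 481 tags (quartiles 364 and 675.5) at 0 to 50 bp, 507 at 51 to 100 bp and 581 at 101 to 150 bp. It reached 695.5 at 151 to 200 bp and 772 tags (quartiles 509 and 1008) at 201 to 300 bp, and was 725.5 at 301 to 500 bp and 645 at 501 to 1000 bp. The median thus rose up to a distance of 300 bp, and the quartiles of neighbouring classes overlapped throughout. Over the 1030 members the rank correlation of the score with the distance was 0.20, and that with the CpG ratio was 0.0379. These are descriptions over peaks of 1 pool of libraries, in which members of a pair share their TSSs.

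**Figure D1:**
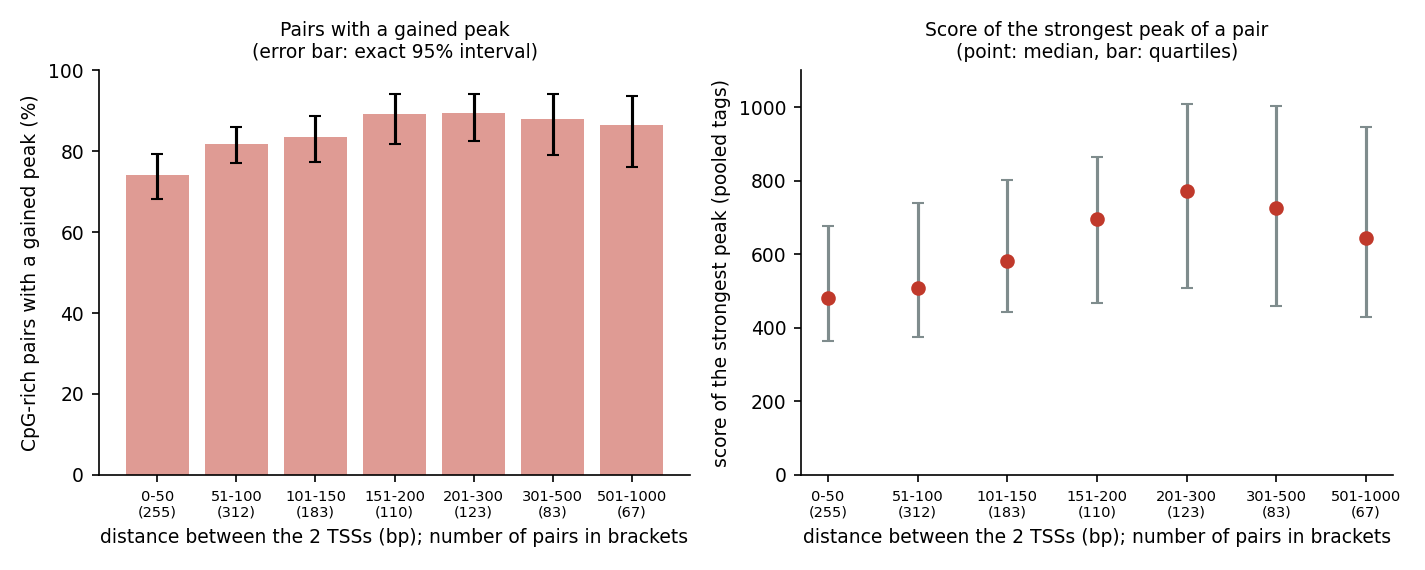
Left, share of CpG-rich divergent pairs with a gained peak (percent, bars with exact 95% intervals) by the distance between the TSSs in bp. Right, median and quartiles of the score of the strongest gained peak of each pair (pooled tags). The share rises from 74.1% at 0 to 50 bp to 89.4% at 201 to 300 bp, and the median score from 481 to 772 tags.

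The members were among the stronger peaks of the list. Their median score was 564 tags (quartiles 386 and 800, range 94.5 to 1715). The 8877 gained peaks at CpG-rich promoters of a single gene had a median of 441 tags (quartiles 294 and 650), and the 235 at other CpG-rich promoters with several genes had 430. Peaks at CpG-poor promoters had a median of 153 tags and those beyond 1 kb of protein-coding TSSs 93 tags. In the upper quartile of the list, which begins at 410 tags, lay 71.1% of the members (exact interval 68.2 to 73.8%), against 55.3% of the single-gene CpG-rich peaks (54.2 to 56.3%). None of the members fell in the lower quartile, below 81 tags, which allows a share of up to 0.291% by the same limit. The lowest member, at 94.5 tags, lay near the median of the peaks beyond 1 kb. The highest scores of the list, up to 18591 tags, belonged to peaks beyond 1 kb, and no member was among its 10 strongest peaks, the first ranking 19 in the list.

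**Figure D2:**
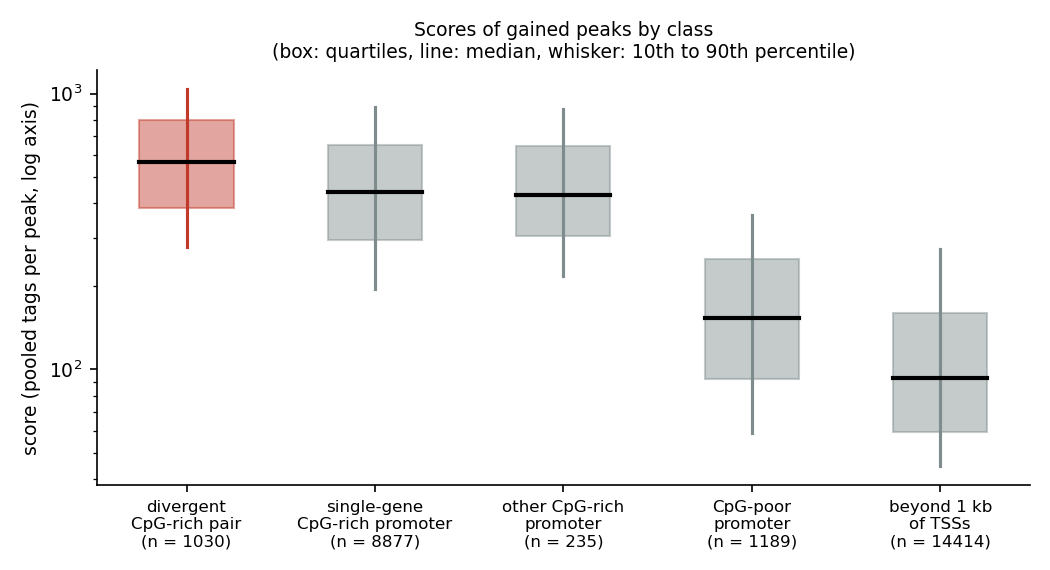
Score per peak (pooled tags, log axis) of 5 classes of gained peaks, with quartiles as boxes, medians as lines and the 10th to 90th percentiles as whiskers. The members (red) have a median of 564 tags against 441 at single-gene CpG-rich promoters, and the boxes of these classes overlap.

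Members on the X chromosome had lower scores than those on autosomes. The 23 members on X had a median of 302 tags (quartiles 189 and 436, highest 639), and the 1007 on autosomes 577 (393 and 810). Single-gene CpG-rich peaks had the same order, with 264 tags for 275 peaks on X and 449 for 8599 on autosomes. Per the study's methods embryos of either sex were used, and the sexes in each pool are not given in the sources used here, so the number of X copies behind a score on X is unknown. The share of pairs with a member was 79.2% of 24 pairs on X (57.9 to 92.9%) and 82.7% of 1109 on autosomes (80.3 to 84.9%). Among the autosomes the lowest share was that of chromosome 11, with 72.4% of 105 pairs (62.8 to 80.7%), and the intervals of all chromosomes overlapped.

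The 10 members with the highest scores lay between 1440 and 1715 tags, and all were on autosomes. The strongest, with 1715 tags at chr14:67715801-67715949, covered the TSSs of *Cdca2*, which encodes a chromatin-bound regulator of protein phosphatase 1 in mitosis, and *Kctd9*, which lie 96 bp apart. Next came *Hjurp*, which encodes the chaperone of the centromeric histone CENP-A, with *Trpm8*, a cold-activated ion channel, at 1586 tags. *Mob3a* and *Izumo4* followed with 1539 tags. *Dcaf6*, which encodes a substrate receptor of a ubiquitin ligase, and *Mpc2*, a subunit of the mitochondrial pyruvate carrier, had 1532 tags, in a peak 546 bp from the midpoint on the *Mpc2* side. *BC005624* with the deubiquitinase gene *Usp20* had 1518 tags, and *Aamp* with *Pnkd* 1497. The peak of *Srgap2*, a gene of neuronal migration, and *Fam72a* had 1484 tags, and lay between TSSs that are 551 bp apart. *Xrcc3* and *Zfyve21* had 1477 tags, *Gm10644* and the histone chaperone gene *Asf1b* 1452, and *Rnft2* and *2410131K14Rik* 1440. In 7 of these 10 the centre of the peak was between the TSSs.

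At the other end, the 3 weakest members were all on the X chromosome. *Trpc5*, which encodes a cation channel, and *Rtl4* had 94.5 tags. *G6pdx*, the first enzyme of the pentose phosphate pathway, with *Ikbkg*, the regulatory subunit of the IκB kinase complex, and *Ptchd1* with *Gm15155* had 96.5 tags each. The peak of *G6pdx* and *Ikbkg*, at chrX:74429574-74429722, held the ETS string 3 times.

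Of 19 pairs listed as textbook examples of divergent promoters, 18 were found as divergent pairs in the annotation and 15 had members. At 83.3% of the 18, the share was near the 82.6% of all CpG-rich pairs. Genes of the DNA damage response led them. *Atm*, which encodes the kinase that signals double-strand breaks, and *Npat*, an activator of histone gene transcription, shared a peak of 1136 tags between TSSs 307 bp apart. *Brca1* and the autophagy receptor gene *Nbr1* had 2 peaks, of 508 tags over the TSS of *Brca1* and 1070 tags at chr11:101552616-101552764, 638 bp from the midpoint towards *Nbr1*. *Mcm4*, a subunit of the replicative helicase, and *Prkdc*, the catalytic subunit of DNA-dependent protein kinase, had 743 and 664 tags, both with centres between TSSs 466 bp apart. *Fen1*, the flap endonuclease of DNA replication, and *Tmem258* had the lowest score of the textbook pairs, at 220 tags.

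Pairs in which both genes act in 1 process were among them. *Hspd1* and *Hspe1*, the mitochondrial chaperonin and its co-chaperonin, had 966 tags. *Ppat* and *Paics*, both of purine synthesis, had 2 peaks of 708 and 676 tags, and *Gart*, of the same pathway, had 703 tags with the splicing gene *Son*. *Mrps12*, a mitochondrial ribosomal protein, and *Sars2*, the mitochondrial seryl-tRNA synthetase, had 671 tags, in a peak at chr7:28741789-28741937 with the NFY string at 2 places and the ETS string at 1. The basement membrane collagens *Col4a1* and *Col4a2* had 368 tags, in a peak that covered both TSSs, and the histidyl-tRNA synthetases *Hars* and *Hars2* had 359.

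The remaining pairs of this list joined unrelated genes. *Ranbp1*, of nuclear transport, and *Trmt2a* had 831 tags, *Idh3g*, of the tricarboxylic acid cycle, and *Ssr4* 497 tags, the mitochondrial deacetylase gene *Sirt3* and the proteasome gene *Psmd13* 476 and 382 tags, and the proteasome gene *Psmb1* and *Tbp*, the TATA-binding protein, 351 tags. *Surf1* with *Surf2*, *Cox4i1* with *Emc8* and *Afmid* with *Tk1* are divergent and CpG-rich, and had no gained peak within 1 kb of a TSS of either gene. Of *Dpcd* and *Poll*, 1 symbol was not found in the annotation.

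A member could lie anywhere within 1 kb of both TSSs, and its place in the pair was the next comparison. The peak centre lay between the TSSs in 42.3% of the members (exact interval 39.3 to 45.4%), on the side of the minus-strand gene in 35.7% (32.8 to 38.7%) and on that of the plus-strand gene in 21.9% (19.5 to 24.6%). The median distance of the centre from the midpoint was 86.3 bp. Both TSSs were covered by 15.7% of the peaks, 1 TSS by 44.3% and no TSS by the other 412. Members with a centre between the TSSs had a median of 655 tags (quartiles 436 and 907), and the others 517 tags (365 and 725).

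The share between the TSSs was low where the TSSs were close together, and the cause was not tested. It was 11.4% at 0 to 50 bp, 27.5% at 51 to 100 bp and 47.3% at 101 to 150 bp. It was highest at 201 to 300 bp, where 72.6% of 113 members (63.4 to 80.5%) had their centre between the TSSs, and was 57.1% of 77 members at 501 to 1000 bp. At that widest distance the median centre lay 352 bp from the midpoint, nearer to a TSS than to the middle.

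**Figure D3:**
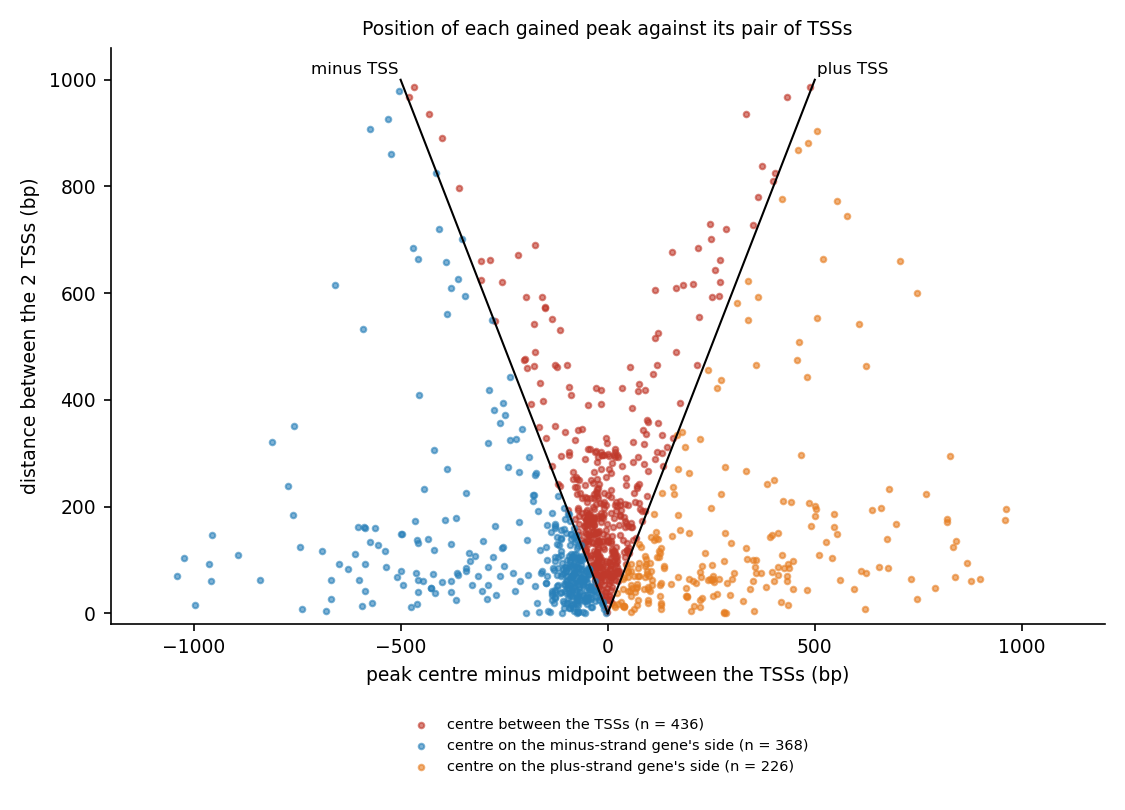
Each point is 1 of the 1030 members. The horizontal axis gives its centre minus the midpoint between the TSSs (bp, negative towards the minus-strand gene) and the vertical axis the distance between the TSSs (bp), with black lines at the TSSs. There are 436 centres between the lines, 368 on the minus-strand side and 226 on the plus-strand side.

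The unequal sides are along the genome, as minus-strand genes of these pairs always lie at lower coordinates. The median offset of the centre from the midpoint was -28.8 bp. A displacement of the same direction was seen for most strings in the whole list: the CTCF string, searched within 300 bp of every gained peak, lay at a median of 27.5 bp above the centre of the interval (1428 occurrences, quartiles -0.75 and 51.5). The ETS string lay 22.5 bp above it over the whole list and 21 bp above it in the members. In the members the medians lay below the centre for HIF (-34.5 bp, 91 occurrences), GATA (-29 bp, 24) and CTCF (-25.5 bp, 7). For the other strings measured in the members they lay above it, from 1 bp for NRF1 to 55.5 bp for the ZBTB33-type string. The displacement was less for some strings over the whole list, with medians of 9.5 bp for MEF2, 3.5 bp for HIF and -0.5 bp for the E-box. At single-gene CpG-rich promoters the median centre was 44.5 bp upstream of the TSS for genes on the plus strand and 8 bp upstream for genes on the minus strand. Every interval was then moved 28 bp towards higher coordinates, a step chosen after seeing the data. The step is close in size to the median offset of -28.8 bp. It therefore levels the sides of the pairs by construction and is no check of the displacement. After it, 291 centres lay on the minus-strand side and 294 on the plus-strand side, of 1026 members. The median offset from the midpoint was -1 bp. At the single-gene promoters the median centre was then at -16.5 bp for plus-strand genes and -36 bp for minus-strand genes, so that their order was the reverse. The share between the TSSs was then 43.0%, and both TSSs were covered by 19.1%. The source of the displacement was not tested.

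Most pairs, 822 of 924, had 1 member, 98 had 2 and 4 had 3. In the pairs with 2, the centres were a median of 585 bp apart (quartiles 455 and 767, least 341), and in 61.2% of them (exact interval 50.9 to 70.9%) the peaks flanked the midpoint. The stronger peak had a median of 1.39 times the score of the weaker. Pairs with 2 or 3 members had TSSs 160 bp apart in the median, against 105 bp for pairs with 1. Their strongest peaks had a median of 655 tags (95% interval 530 to 711.5) and the single peaks 586 (556 to 617.5). The strongest of 2 or 3 peaks tends to exceed a single one by construction, and the intervals overlapped.

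The pairs with 3 members differed in score. *Usp5*, a deubiquitinase gene, and *Cdca3*, a gene of mitotic entry, had 1138, 1148 and 744 tags along the chromosome, the middle peak covering both TSSs. *A730061H03Rik* and *Dcaf11* had 522, 707 and 785 tags. *Uqcrh*, a subunit of respiratory complex III, and *Lrrc41* had 491, 522 and 398 tags, and *Atp6v1a*, the catalytic subunit of the vacuolar proton pump, and *Naa50*, an acetyltransferase gene, had 336, 366 and 261 tags. In all 4 pairs the peak nearest to the midpoint was closer than 100 bp to it, and the outer peaks lay 250 to 835 bp away. The shortest and longest distances between TSSs were those of *Nsa2* and *Gfm2*, whose TSSs share 1 position (0 bp; 304 tags), and of *Btf3l4* and *Txndc12* (987 bp; 314 tags).

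The strings in the members were compared with those in other gained peaks, as shares of peaks that hold a string within the interval. The SP1 string was the most frequent, in 35.6% of the members (exact interval 32.7 to 38.6%) and 40.4% of the single-gene CpG-rich peaks (39.3 to 41.4%). The NFY string was in 21.5% (19 to 24.1%) and 13.9% (13.2 to 14.7%), and the ETS string in 16.4% (14.2 to 18.8%) and 9.73% (9.12 to 10.4%). The NRF1 string was in 3.69% (2.62 to 5.03%) and 1.69% (1.43 to 1.98%). For these 4 strings the counting intervals did not overlap, and the members were the higher for NFY, ETS and NRF1 and the lower for SP1. At the 235 other CpG-rich promoters with several genes, NFY stood at 15.3% (11.0 to 20.6%), ETS at 14.9% (10.6 to 20.1%) and NRF1 at 2.55% (0.943 to 5.47%), with intervals that overlapped those of the members. The shares of the YY1 string, 1.85 and 1.63%, the CRE string, 1.75 and 1.53%, the E-box, 3.98 and 4.79%, the ZBTB33-type string, 1.65 and 1.15%, and the HIF string, 2.23 and 1.77%, had intervals that overlapped. GC content differed too, with a median of 65.1% in the members and 68.5% in the single-gene CpG-rich peaks, and its part in these shares was not tested.

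As a reference, windows of the width of a peak just upstream of all 21938 protein-coding genes held the ETS string in 6.63%, NFY in 13.0%, NRF1 in 1.58% and SP1 in 25.3%. Windows of the same length centred on the midpoint of the 936 pairs with a member held ETS in 20.7% and NFY in 20.7%. The corresponding windows of the 197 pairs without one held ETS in 23.9% (18.1 to 30.4%) and NFY in 11.2% (7.13 to 16.4%). The intervals for ETS, with 18.2 to 23.5% at the pairs with a member, overlapped, and those for NFY, with the same 18.2 to 23.5%, did not.

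Strings of distal elements were rare in the members. The GATA string AGATAAG was in 0.194% of them, the CTCF string in 0.388% and the MEF2 string in 0 of 1030, which allows up to 0.291% by the limit of 3 counts. They were rare at single-gene CpG-rich promoters too, at 0.439%, 0.676% and 0.124%. In gained peaks beyond 1 kb of protein-coding TSSs the shares were 6.67%, 6.82% and 1.46%. The letters TATAAA, 35 to 20 bp upstream of the TSS, were found at 1 of 1848 TSSs of the closest pairs (0.0541%, exact interval 0.00137 to 0.301%), against 2.06% at the 5′ ends of all protein-coding genes. The latter include 8346 CpG-poor genes in no pair, and single-gene CpG-rich promoters were not counted for TATAAA. Whether its rarity is particular to the pairs was therefore not tested.

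**Figure D4:**
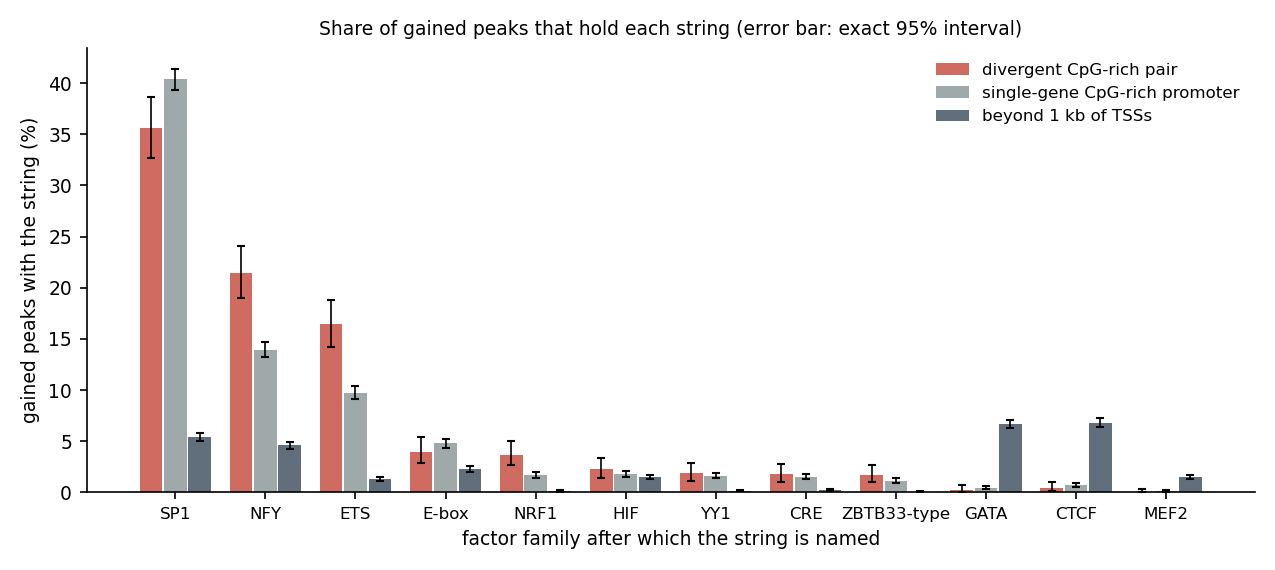
Share of gained peaks (percent, exact 95% intervals) that hold each of 12 strings within the interval, for the members (red), single-gene CpG-rich promoters (grey) and peaks beyond 1 kb of TSSs (dark). NFY stands at 21.5, 13.9 and 4.59% and GATA at 0.194, 0.439 and 6.67% in these 3 classes.

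The strings were spread unequally over the pairs. The share of members with the ETS string fell with the distance between the TSSs, from 23.3% of 193 members at 0 to 50 bp (17.5 to 29.9%) through 14.8% at 101 to 150 bp to 2.60% of 77 at 501 to 1000 bp (0.316 to 9.07%). That with the NFY string went from 14.5% at 0 to 50 bp (9.86 to 20.3%) up to 35.4% at 201 to 300 bp (26.6 to 45.0%), and was 15.6% at 501 to 1000 bp. The SP1 string showed no such course, with shares of 30.7 to 40.3%. NFY was in 29.8% of the members with a centre between the TSSs and in 15.3% of the others, while ETS was in 16.3 and 16.5%. SP1 was in 40.6 and 32.0% of these, and NRF1 in 5.51 and 2.36%.

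Members with the NFY string had a median of 703 tags (quartiles 493 and 929), and those without 533 (369 and 768). With the SP1 string the medians were 614 and 543 tags. With the ETS string the order was the other way, 510 tags with it (quartiles 372 and 699) and 584 without (394 and 818). Since ETS was more frequent at short distances and NFY at 201 to 300 bp, the strings and the distance moved together with the score, and their separate parts were not tested. At least 1 of the 8 promoter strings (those above without GATA, HIF, MEF2 and CTCF) was in 64.9% of the members (exact interval 61.9 to 67.8%), beside 59.0% of the peaks at single-gene CpG-rich promoters, 60.9% of those at other CpG-rich promoters (54.3 to 67.1%) and 31.6% of all gained peaks.

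The genes were then grouped into families, most of them by the pattern of their symbols, so that a family holds a few genes that share only the name. A family's count is the number of its genes in CpG-rich divergent pairs that had a member, beside 1832 of all 2218 such genes. Its median score is over all of its genes whose pair had a member. DNA replication and repair had 36 of 41 genes, led by *Xrcc3*. *Parp3*, of the poly(ADP-ribose) polymerase family, with *Rrp9* had 1357 tags. The family's median was 631 tags. *Lig4*, the ligase of end joining, with *Abhd13* was its lowest at 218 tags.

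All 22 genes of the centrosome and cilium in such pairs had a member, with a median of 660 tags. *Cep170*, a centrosomal protein, with *Sdccag8* had 1259 tags, *Ift122*, of intraflagellar transport, with *Mbd4* 989, and *Cep290*, of the ciliary transition zone, with *Tmtc3* 890. All 8 genes of a list of chromatin enzymes and subunits of chromatin complexes had one too, with a median of 774 tags. They were *Kdm1b*, a histone demethylase, at 1419 tags with *Tpmt*, *Setd3*, which encodes an actin histidine methyltransferase, at 1288 with the cyclin gene *Ccnk*, *Arid4b*, *Rbbp4*, *Smarcc1*, *Kdm4d*, *Hdac3* and *Kdm5a*, of which the last had the lowest score at 327 tags.

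Genes of the mitochondrion were split. Of oxidative phosphorylation, 29 of 35 genes had a member, with a median of 482 tags. They included *Ndufaf8*, an assembly factor of complex I, at 938 tags, *Atp5h*, a subunit of the ATP synthase, at 707 and *Sdha*, of complex II, at 326. *Atp5j* had 645 tags with *Gabpa*, itself an ETS factor gene. Of the mitochondrial ribosomal proteins, 18 of 29 genes had a member, from 274 tags at *Mrpl10* to 1301 tags at *Mrpl18*, which is paired with the chaperonin gene *Tcp1*. Cytosolic ribosomal proteins had 8 of 14, with a median of 423 tags and a range from 115 tags at *Rpl4* to 1037 at *Rpl15*. Whether these counts differ from those of other families was not tested.

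Other housekeeping families had members at most of their pairs. The counts were 30 of 36 for splicing and RNA helicases, 22 of 29 for RNA polymerases and general transcription factors, 8 of 10 for translation factors and 9 of 10 for aminoacyl-tRNA synthetases. They were 22 of 27 for chaperones and mitochondrial import, 9 of 11 for the proteasome, 23 of 25 for the cell cycle, 35 of 40 for the ubiquitin system, 24 of 28 for vesicle traffic and 28 of 35 for zinc-finger proteins. Medians ran from 439 tags in vesicle traffic to 673 in zinc-finger proteins. Examples are the stress chaperone gene *Hsp90b1* at 1119 tags, *Med19* of Mediator at 1088 tags and *Cdk2*, a kinase of the G1/S transition, at 516 tags.

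Clustered histone genes, whose H2A and H2B genes stand head to head, had 27 of their 67 genes in CpG-rich divergent pairs, and 21 of the 27 had a member. The pair of *Hist1h2ac* and *Hist1h2bc* had the highest score, 746 tags, and that of *Hist2h2ac* and *Hist2h2be* the lowest, 268. The distances in the H2A/H2B pairs with a member ran from 176 to 302 bp. The pairs of *Hist1h2ba* and *Hist1h2aa*, which are the testis forms, *Hist1h2ap* and *Hist1h2br*, and *Hist1h2bq* and *Hist1h2ao* had none. Histone genes are near copies of one another, so reads may have been split between them.

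**Figure D5:**
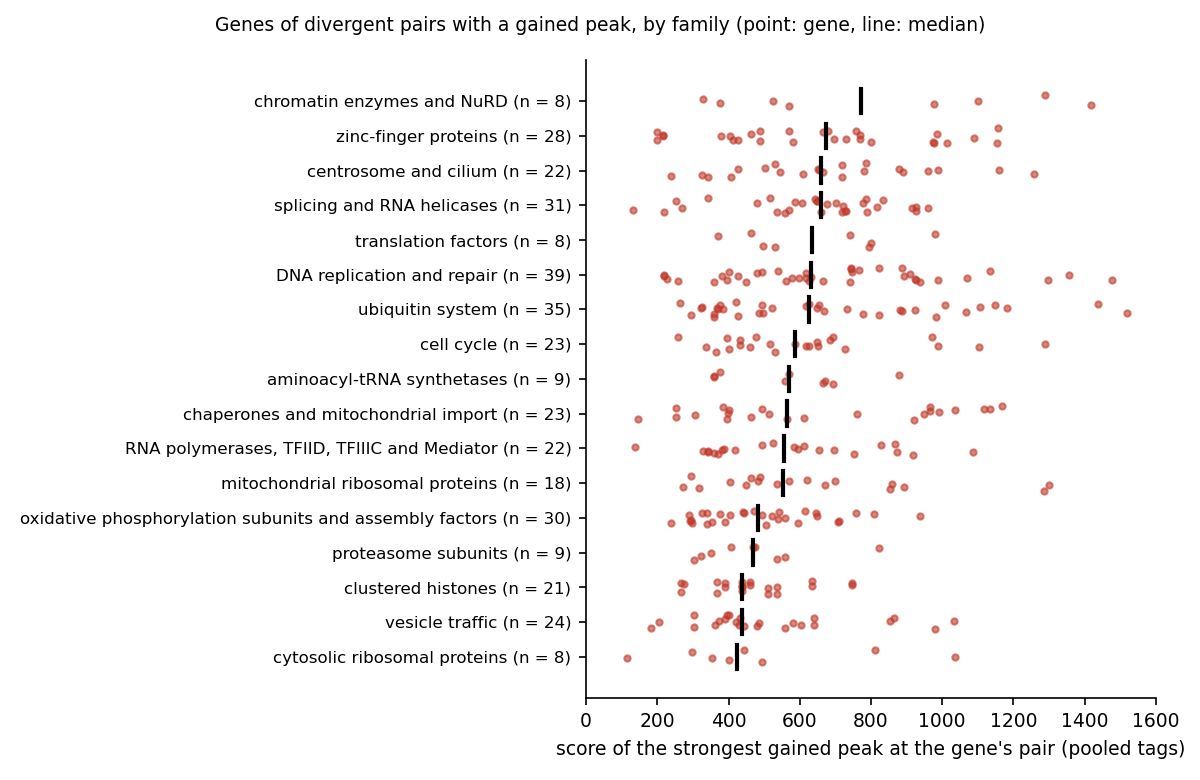
Score of the strongest gained peak at the pair of each gene (pooled tags, points) by family, with the median of the family as a line and the number of genes in brackets. Among the families shown, those with at least 7 genes in CpG-rich pairs, medians run from 423 tags for cytosolic ribosomal proteins to 774 for chromatin enzymes and NuRD, and the ranges of all families overlap.

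Few genes of the heart and metabolic lists lay in divergent pairs. In such pairs lay 10.1% of all protein-coding genes. Of 25 cardiomyocyte genes 1, *Myl4*, the atrial and embryonic essential myosin light chain, was in a CpG-rich pair, with *Cdc27*, a subunit of the anaphase-promoting complex. Their TSSs are 43 bp apart, and the peak at chr11:104550491-104550639 had 586 tags. No gene of the glycolysis, hypoxia response or angiogenesis lists was in such a pair, although 20 of 21, 20 of 22 and 14 of 21 of them had a gained peak within 1 kb of a TSS elsewhere, beside 48.1% of all protein-coding genes and 66.2% of CpG-rich genes in no pair. The lists are short, and their counts were not tested against the share of all genes in pairs. *Smyd1* itself is in no divergent pair. It had no gained or lost peak within 1 kb of a TSS, and 2 gained and 0 lost peaks lay in the gene, so the lists do not check the genotype labels. The tissue could be checked by differential peaks only: 5 of 7 cardiomyocyte markers (*Tnnt2*, *Myh6*, *Myh7*, *Myl7* and *Actc1*), 1 of 4 endothelial markers (*Tek*) and 0 of 4 erythroid markers had a gained peak within 1 kb of a TSS, beside 48.1% of all protein-coding genes, and none of these 15 genes had a lost one. So few genes near that share check little.

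Around the CpG threshold single scores overlapped. The members just inside were those of *Psmd10* and *Atg4a* (ratio 0.403, 302 tags), *Psme2* and *Rnf31* (0.405, 824 tags) and *Mrpl41* and *Pnpla7* (0.431, 368 tags). Just outside were peaks of *G0s2* and *Lamb3* (0.399, 364 tags), *Cenpx* and *Lrrc45* (0.393, 243 tags) and *Bak1* and *Ggnbp1* (0.391, 362 tags). In all, 15 gained peaks lay at divergent pairs under the threshold, with a median of 258 tags (highest 389), below the median of 564 tags of the members.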

How the data were processed

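The authors aligned reads to mm10 with BWA-MEM, called peaks with HOMER 4.10.3 on the combined libraries of each genotype and kept peaks that differed at least 2-fold. The deposited signal of a peak is its pooled tag count in the genotype where it was called. Treatment of duplicates and of the Tn5 offset is not given in the sources used here. Intervals of equal width were read as 0-based BED, which leaves a doubt of 1 bp at an edge.

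TSSs were those of every transcript of a protein-coding gene in GENCODE M21, and sequence was read from GRCm38, the same build. Distances run from the nearer peak edge. Where several pairs qualified, the closest TSSs were used. Named pairs were the 10 highest and 3 lowest scores, listed textbook pairs, pairs with most members, the shortest and longest distance, and pairs with genes of 4 heart and metabolic lists; families are given by counts with examples chosen after their values were seen. Some named pairs are not reported here. Members and lists were chosen with earlier results of these data known. Searches were tested on simulated data (19 of 19 checks passed). Shares have exact Clopper-Pearson 95% intervals. No test over regions was made, and 8 other settings were tried, with 2 more added after seeing the data. A further setting, with no CpG minimum for the peak, was also added after seeing the data. It was used for the share of pairs by CpG ratio only. Python 3.11.15, numpy 2.4.6, scipy 1.17.1, pysam 0.24.0 and matplotlib 3.10.9 were used.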

Additional observations from a re-analysis of the deposited data

How the results depend on the processing

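Of 50 values, 5 results under 10 alternatives of which 2 were chosen after seeing the data (no readthrough transcripts, intervals moved 28 bp), 43 stayed within counting error or, for the number of members, within 1.5 times. With only the 5′ end of each gene as its TSS there were 659 members, by construction since fewer TSSs entered. The share of pairs with a member was 78.7% with no CpG minimum and 71.6% with the peak within 300 bp of both TSSs. The share of centres between the TSSs moved under 4 settings. It was 49.5% with gene 5′ ends, 47.6% with transcripts of protein-coding type, 50.6% with the peak within 300 bp of both TSSs and 38.5% with TSSs at most 300 bp apart, and the cause was not tested. The share of pairs at a CpG ratio of 0.4 to 0.6 stayed within counting error with no minimum for the peak. The median score and the share with the ETS string moved under none of the 10.

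No paired analysis was possible because the libraries of each genotype were pooled before peaks were called, and for the same reason no replicate was left out. Depth per library is unknown from the lists, and unchanged open regions were not analysed here.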

Other observations

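Divergent pairs whose symbols share a start, mostly related genes, were looked at after the values were known. Of 36 such CpG-rich pairs, 27 had a gained peak, beside 936 of all 1133 CpG-rich pairs. Among those with one were *Slc25a29* and *Slc25a47*, mitochondrial carriers, at 1130 tags, *Safb2* and *Safb*, of nuclear RNA binding, at 899, *Ccpg1os* and *Ccpg1* at 881, *Abca17* and *Abca3*, lipid transporters, at 650, and *Tor1aip1* and *Tor1aip2*, of the nuclear envelope, at 633. *Hadha* and *Hadhb*, the subunits of the mitochondrial trifunctional protein of fatty acid oxidation, were low, at 224 tags. The stress-induced *Hspa1a* with the testis gene *Hspa1l* had 252 tags.

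The 9 without one included pairs known for restricted expression: *Gabra4* and *Gabrb1*, which encode neuronal GABA receptor subunits, *Duox2* and *Duoxa2*, of the thyroid, and *Col4a4* and *Col4a3*, of kidney basement membrane. They also included *Surf1* and *Surf2*, which are widely expressed, *Tmc6* and *Tmc8*, *Wdr83* and *Wdr83os*, and 3 pairs of histone genes. The type IV collagen pair *Col4a1* and *Col4a2* thus had a gained peak, at 368 tags, and the pair *Col4a4* and *Col4a3* had none.

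Where both genes of a pair belonged to 1 family, 20 of 25 pairs had a gained peak, near the 82.6% of all CpG-rich pairs. The scores of the zinc-finger pairs ran from 201 tags at *Zfp942* and *Zfp943* and 216 at *Zfp944* and *Zfp758* to 770 at *Zfp668* and *Zfp646*.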
